A study of Rattus norvegicus with 20 samples.

Results

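The genes of the AMPA and NMDA glutamate receptor subunits were examined in RNA of the nucleus accumbens, the part of the ventral striatum that belongs to the reward system. The members were the rows of the deposited count table named Gria1 to Gria4, which encode the AMPA receptor subunits, and Grin1, Grin2a to Grin2d and Grin3a, which encode NMDA receptor subunits. All 10 were present in the table of 17296 gene symbols, and all 10 were among the 12846 genes kept after the filter on low counts. The rats were male Sprague-Dawley animals without a genetic change, 7 to 9 weeks old, housed 2 to a cage, and every group self-administered cocaine. They differed in what was in their drinking water. The group H2O had plain water (n = 5), Abx an antibiotic mixture against the gut microbiome (n = 4), SCFA short-chain fatty acids, which gut bacteria make by fermentation (n = 6), and Abx_SCFA both (n = 5). No group without cocaine was part of the series, so that all values describe rats with cocaine experience. The SCFA and Abx_SCFA rats carry numbers of the 4-hundred series and the H2O and Abx rats of the 2-hundred and 3-hundred series. Replicates 1 and 2 of H2O and of Abx are of the 2-hundred series, and their later replicates of the 3-hundred series. Wherever SCFA or Abx_SCFA is set against H2O or Abx, the series and the fatty acids cannot be told apart. The same holds for the interaction, whose 2 antibiotic effects come from different series.

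AMPA receptors are tetramers that carry the fast current of excitatory synapses, and NMDA receptors are tetramers that pass calcium when glutamate, a co-agonist and depolarisation coincide. In the accumbens both sit mainly on medium spiny neurons, which receive glutamate from the cortex, hippocampus, amygdala and thalamus. Cocaine self-administration is known for changing the AMPA receptor composition at these synapses, including a gain of receptors that lack the GluA2 subunit after long abstinence. Messenger RNA levels do not show where a subunit protein is placed, and gene counts do not separate splice forms or RNA editing.

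Library totals ran from 17525358 to 25731636 counts. Markers of medium spiny neurons were abundant in every library, with the D1 dopamine receptor gene Drd1 between 171 and 511 CPM, where CPM is a gene's counts scaled to the size of the library after adjustment by TMM (trimmed mean of M-values). Markers of excitatory neurons of the cortex, a cell type that the accumbens lacks, varied far more. The 9 measured markers of that cell type summed to 186 to 556 CPM in the H2O libraries, 281 to 996 CPM in the Abx libraries, 289 to 2071 CPM with SCFA and 378 to 812 CPM with Abx_SCFA. None of the 9 was at 0 in every library of a group, and Neurod1 was at 0 in some H2O libraries. Slc17a7, the vesicular glutamate transporter gene of cortical neurons, was highest in SCFA replicate 5 at 1059 CPM, the library with the lowest Drd1, and lowest in H2O at 3.09 CPM. The 10 oligodendrocyte markers summed to 15000 to 22630 CPM with H2O and to 6738 to 14100 CPM with Abx, without overlap, and their part in the differences between Abx and H2O was not tested. SCFA replicates 2 and 5 stood apart in the cortical and medium spiny neuron markers, with Slc17a7 at 695 and 1059 CPM and Drd1 at 208 and 171 CPM. SCFA replicate 5 also had the lowest mean log2 CPM of the oligodendrocyte markers of all libraries, 7.91, while SCFA replicate 2 stood at 9.46. The main results that move without SCFA replicates 2 and 5 are given both ways. In bulk tissue, a change in the number of cells of a type cannot be told apart from a change in RNA per cell.

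No subunit gene passed the test in any comparison of treatments. In edgeR's quasi-likelihood test over all genes with Benjamini-Hochberg adjustment, 0 of 10 members had an adjusted p below 0.05 in each of the 5 pairwise comparisons and in the interaction. The background was the same, since 0% of the 12846 genes passed in each of them. The smallest adjusted p of a member was 0.273, for Gria1 in SCFA against H2O. In the pairwise comparisons the fitted log2 fold changes of members lay between -0.36 (Grin2a in Abx_SCFA against Abx) and 0.33 (Grin3a in Abx against H2O). Their 95% intervals had a half-width between 0.15 and 0.60, widest for Grin2a, so that larger differences remain possible. In no pairwise comparison did the libraries of a member fall into groups that did not overlap. Between SCFA and H2O 0.537% of all genes had such groups, between Abx and H2O 2.46%, between Abx_SCFA and H2O 1.42%, between Abx_SCFA and Abx 1.20%, and between Abx_SCFA and SCFA 0.560%. Members with an unadjusted p below 0.05 numbered 0 in Abx_SCFA against H2O, against Abx and against SCFA, where 5.56%, 3.19% and 6.78% of all genes had one.

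**Figure D1:**
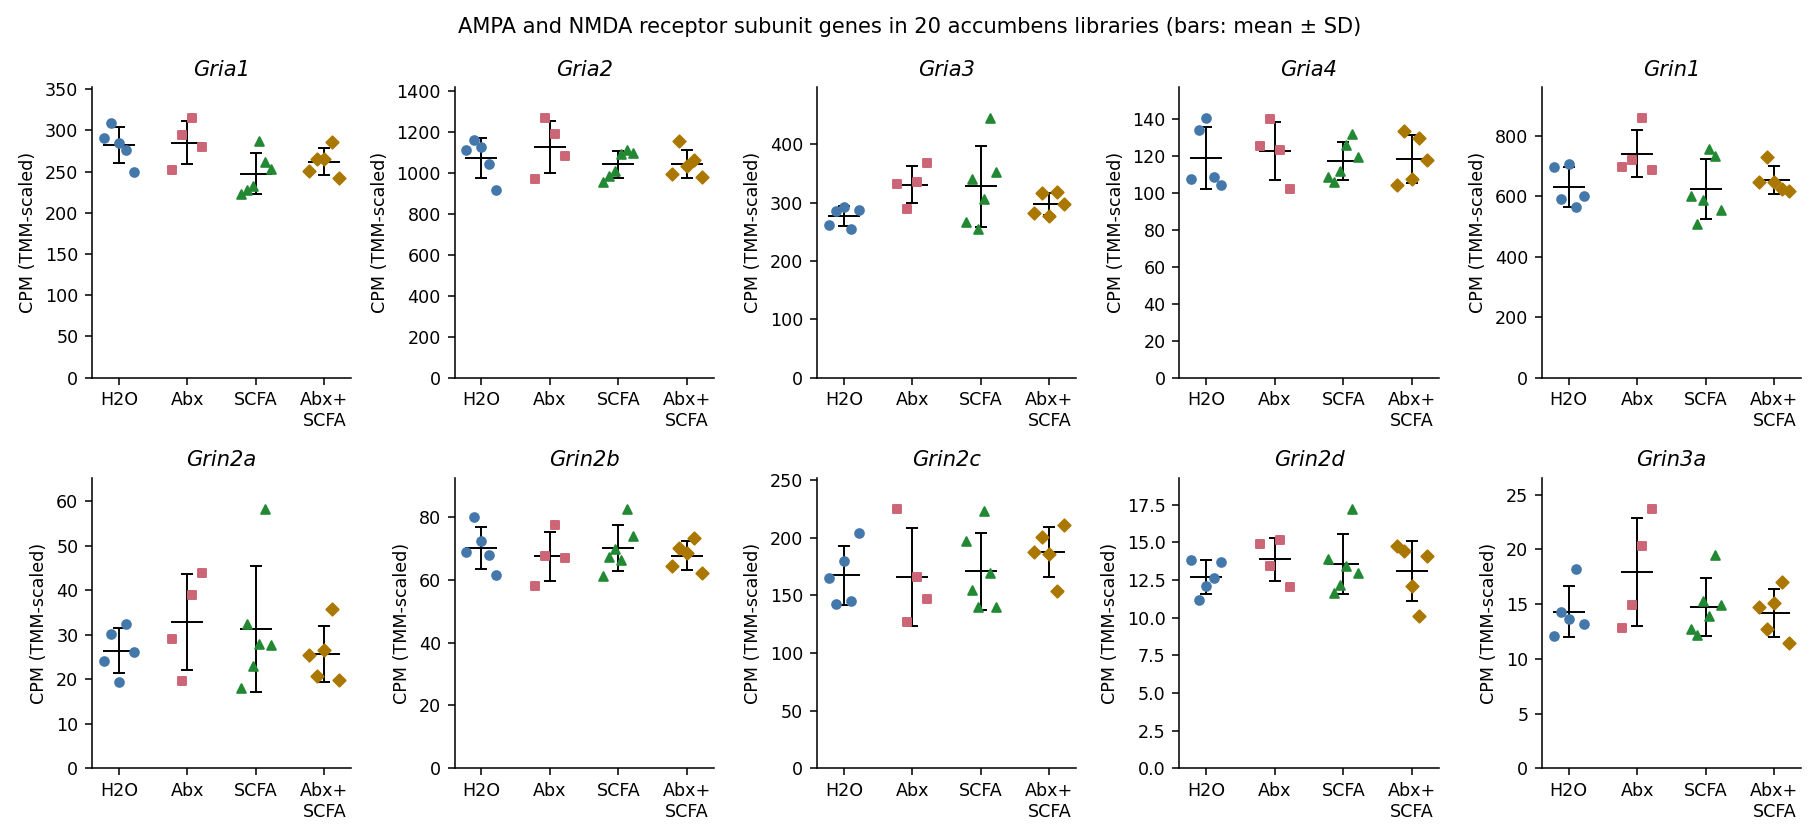
Level of each subunit gene in CPM (vertical axis, from 0) for every library, by treatment group on the horizontal axis, with black bars for the mean and SD. The groups overlap for every gene, and the points spread most for Grin2a, where SCFA replicate 5 reaches 58.2 CPM.

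Gria1 encodes GluA1, the subunit whose trafficking is regulated by activity and by phosphorylation. It measured 290.4, 308, 285, 276 and 249.5 CPM in the 5 H2O libraries and 252, 294, 314 and 280.2 in the 4 Abx libraries. In SCFA it had a lowest value of 222, a median of 243 and a highest value of 287 CPM, and in Abx_SCFA it measured 251, 265, 265, 286 and 243. SCFA replicates 1, 2 and 3 lay below every H2O library, and SCFA replicates 4, 5 and 6 lay within the H2O range. The highest SCFA library exceeded 3 of the 5 H2O libraries. The mean was 247 ± 24.5 CPM in SCFA (SD, n = 6) against 282 ± 21.6 in H2O (SD, n = 5), with a log2 fold change of -0.19 ± 0.073 (SE) and a 95% interval from -0.34 to -0.04. The edgeR p was 0.0185 before and 0.273 after adjustment, where 13.8% of all genes had an unadjusted p below 0.05 and 5.58% had one and were lower in SCFA. Without SCFA replicates 2 and 5 the log2 fold change was -0.18 (edgeR adjusted p = 0.864).

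Gria2 encodes GluA2, whose edited pore site keeps AMPA receptors from passing calcium. The H2O libraries had 1113, 1159, 1126, 1045 and 917 CPM, the Abx libraries 971, 1266, 1188 and 1084 CPM, and the Abx_SCFA libraries 993, 1155, 1033, 1061 and 979 CPM. In SCFA it ran from 955 through a median of 1050.4 to 1113 CPM. The highest and the lowest library differed by 1.38-fold over all 20, and the groups lay across each other. The log2 fold change was 0.07 ± 0.083 (SE) in Abx against H2O and -0.04 ± 0.075 in SCFA against H2O.

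Gria3 encodes GluA3, a partner of GluA2 in many forebrain AMPA receptors. It measured 261, 286, 293, 256 and 288 CPM in H2O and 331, 290.0, 335 and 369 in Abx. It measured 283, 316, 277, 318 and 299 CPM in Abx_SCFA and ran from 256 through a median of 324 to 445 CPM in SCFA. Abx replicates 1, 3 and 4 lay above every H2O library, while Abx replicate 2 lay within the H2O range. SCFA replicate 5 had the highest value of all libraries. The log2 fold change was 0.26 ± 0.12 (SE) in Abx against H2O, with a 95% interval from 0.01 to 0.50 and an edgeR p of 0.0394 before and 0.563 after adjustment. In SCFA against H2O it was 0.25 ± 0.11 (SE), with an interval from 0.02 to 0.47 and an edgeR p of 0.0326 before and 0.315 after adjustment. Unadjusted p below 0.05 with a higher level was found for 3.26% of all genes in the first comparison and for 8.20% in the second, which share the H2O libraries. Without SCFA replicate 5 the difference between SCFA and H2O was 0.14, and without SCFA replicates 2 and 5 it was 0.10 (edgeR adjusted p = 0.882).

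Gria4 encodes GluA4, known in the forebrain mainly from parvalbumin interneurons. It ran from 102 to 140.4 CPM over all libraries. In the order H2O, Abx, SCFA, Abx_SCFA its group means stood at 119 ± 16.9, 123 ± 15.8, 117 ± 10.2 and 119 ± 13 CPM (SD, n = 5, 4, 6 and 5). Its log2 fold changes were between -0.05 and 0.04 in the 5 pairwise comparisons.

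Grin1 encodes GluN1, the glycine-binding subunit that every NMDA receptor needs. It measured 698, 589, 705, 563 and 599.5 CPM in H2O and 697, 721, 857 and 688 in Abx. It ran from 509 through a median of 593 to 755 CPM in SCFA and measured 647, 730.2, 647, 623 and 617 in Abx_SCFA. The Abx libraries lay beside or above the 2 highest H2O libraries, with Abx replicate 3 highest of all 20. The mean was 741 ± 78.9 CPM in Abx (SD, n = 4) and 631 ± 65.7 in H2O (SD, n = 5), and the log2 fold change was 0.23 ± 0.11 (SE; 95% interval 0.01 to 0.46). The edgeR p was 0.0436 before and 0.563 after adjustment. With Gria3, it was 1 of the 2 members with an unadjusted p below 0.05 between Abx and H2O, where 8.79% of all genes had one. Without Abx replicate 3 its log2 fold change was 0.16.

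The GluN2 subunits bind glutamate and set how fast an NMDA receptor closes. Grin2a, the gene of GluN2A, which is typical of mature forebrain synapses, measured 24.0, 30.2, 19.5, 32.3 and 26 CPM in H2O and 29.0, 19.6, 39.0 and 43.9 in Abx. It ran from 18.0 through a median of 27.9 to 58.2 CPM in SCFA and measured 25.4, 20.8, 26.5, 35.8 and 19.8 in Abx_SCFA. Abx replicates 3 and 4 and SCFA replicate 5 were high, and the lowest library was also an SCFA library. These 2 Abx rats were of the 3-hundred series, in which Grin2a stood at 19.5, 32.3 and 26 CPM in H2O. Its levels spanned 3.24-fold over the 20 libraries, the widest of the 10 genes, and its log2 fold change was 0.31 ± 0.29 (SE) in Abx against H2O and 0.24 ± 0.26 in SCFA against H2O. In Abx against H2O it was 0.15 without Abx replicate 4 and 0.50 without Abx replicate 2. In SCFA against H2O it was 0.16 when H2O replicate 3 was left out, -0.03 when SCFA replicate 5 was, and -0.13 when SCFA replicates 2 and 5 both were.

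Grin2b, the gene of GluN2B, which has a longer current and a long tail that binds CaMKII, varied little between groups. Its means in that same order of groups were 70.1 ± 6.73, 67.4 ± 7.87, 70.1 ± 7.38 and 67.7 ± 4.49 CPM. Its log2 fold change in SCFA against H2O was 0.00 ± 0.081 (SE), with an interval from -0.17 to 0.17. Grin2c, the gene of GluN2C, known from cerebellar granule cells and glia, ran from 127 to 225 CPM, with both ends in Abx. Grin2c had its highest mean in Abx_SCFA at 188 ± 21.7 CPM (SD, n = 5), and its log2 fold change there was 0.17 ± 0.15 (SE) against H2O, or 0.25 without H2O replicate 5. Grin2d, the gene of GluN2D, which is known from interneurons, had the fewest counts of the 10 genes, 206 to 435 in a library, and ran from 10.1 to 17.2 CPM. Grin2d was highest in SCFA replicate 5 and lowest in Abx_SCFA replicate 4.

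Grin3a encodes GluN3A, a glycine-binding subunit that lowers the calcium flow of NMDA receptors. It measured 12.1, 14.2, 13.7, 18.2 and 13.2 CPM in H2O and 12.8, 15, 20.3 and 23.7 in Abx. It ran from 12.2 through a median of 14.4 to 19.5 CPM in SCFA and measured 14.7, 12.7, 15.1, 17.0 and 11.5 in Abx_SCFA. Abx replicates 3 and 4 were the 2 highest libraries and the other 2 Abx libraries lay within the H2O range. The 2 high Abx rats were of the 3-hundred series and the other 2 of the 2-hundred series. In H2O, Grin3a stood at 13.7, 18.2 and 13.2 CPM in the 3-hundred series and at 12.1 and 14.2 in the 2-hundred series. Whether the difference between Abx and H2O varies with the series was not tested. The log2 fold change was 0.33 ± 0.17 (SE) in Abx against H2O (95% interval -0.03 to 0.68, edgeR adjusted p = 0.588) and -0.34 ± 0.17 in Abx_SCFA against Abx (-0.69 to 0.02, edgeR adjusted p = 0.999). These comparisons share the Abx libraries. Without Abx replicate 4 the difference between Abx and H2O was 0.17 and that between Abx_SCFA and Abx -0.18.

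The order of the group means was set by gaps smaller than the spread of the libraries in nearly all cases. Of the 30 pairs of neighbours in the order of the 4 means of each gene, 28 differed by less than the larger SD of the pair. This is a description and not a test of the order, since sorted neighbours lie close and the SD of libraries exceeds the error of a mean. The exceptions were Gria3, where Abx_SCFA exceeded H2O by 21.6 CPM against an SD of 18.6, and Grin1, where Abx exceeded Abx_SCFA by 88.0 CPM against an SD of 78.9. Over the 10 genes, the fitted difference was positive for 8 in Abx against H2O, with a median log2 fold change of 0.10 beside -0.01 over all genes tested. It was positive for 6 in SCFA against H2O (median 0.02 beside 0.00), for 4 in Abx_SCFA against H2O (-0.01 beside -0.01) and for 5 in Abx_SCFA against SCFA (-0.02 beside -0.01). In Abx_SCFA against Abx it was negative for 8 (median -0.12 beside 0.00). Of all 12846 genes tested, 6123 were positive in Abx against H2O and 6439 negative in Abx_SCFA against Abx. These 2 comparisons share the Abx libraries. The count of members turned without SCFA replicates 2 and 5, to 3 positive in SCFA against H2O (median -0.02) and to 9 positive in Abx_SCFA against SCFA (median 0.02). With RLE size factors (relative log expression), the positive counts of members were 9 in Abx against H2O and 5 in Abx_SCFA against H2O. Abx against H2O had 7 positive members without Abx replicate 3, and 7 with the level of cortical neuron markers in the model (median 0.07 in both). With the rat number series in the model it had 8 (median 0.10).

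The interaction, which compares the effect of antibiotics between rats with and without fatty acids, passed for 0 of 10 members and 0% of all genes. Rats with and without fatty acids also differ in number series, and the 2 cannot be told apart here. Gria3 had the smallest p of the members, with a log2 difference of -0.40 ± 0.16 (SE; 95% interval -0.73 to -0.07). The edgeR p was 0.0214 before and 0.622 after adjustment, where 7.85% of all genes had an unadjusted p below 0.05 and 5.01% had one with a negative interaction. Gria3 was on average higher in Abx than in H2O (331 and 277 CPM) and lower in Abx_SCFA than in SCFA (298 and 328 CPM). The second difference rested on SCFA libraries: the log2 fold change of Gria3 in Abx_SCFA against SCFA was -0.14, but -0.03 without SCFA replicate 5 and 0.02 without SCFA replicates 2 and 5, where the interaction was -0.25. Grin2a had an interaction of -0.60 ± 0.39 (SE), which was -0.33 without SCFA replicate 5 and -0.24 without SCFA replicates 2 and 5. Grin3a had one of -0.38 ± 0.23 (SE), which was -0.22 without Abx replicate 4.

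**Figure D2:**
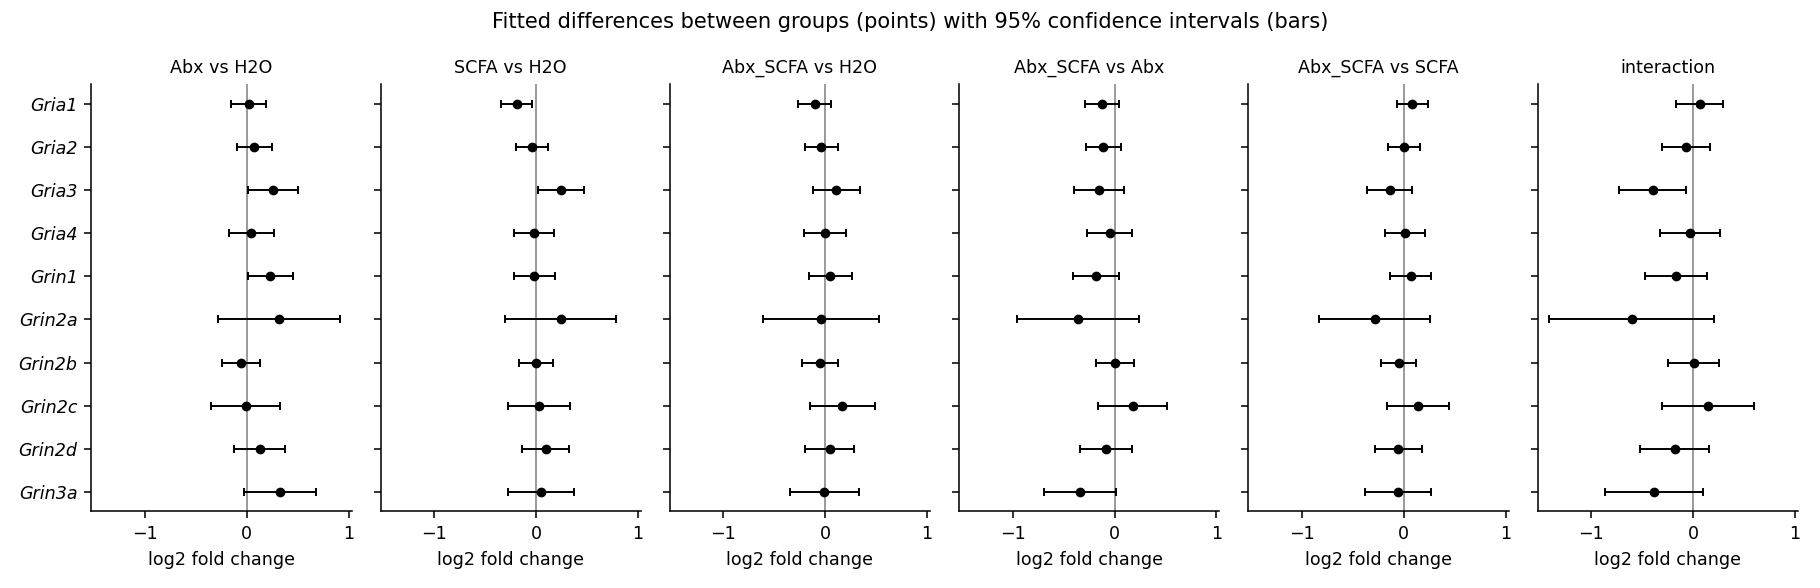
Fitted log2 fold change of each subunit gene (horizontal axis) in the 5 pairwise comparisons and the interaction, as points with 95% confidence intervals from edgeR. Most intervals include 0, those of Gria1 in SCFA vs H2O, of Gria3 in 3 panels and of Grin1 in Abx vs H2O lie just beside it, and none of these passed after adjustment over all genes.

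Count ratios of 2 subunit genes within a library do not depend on its size, and gene length cancels when the ratio is compared between groups. The ratio of Gria1 to Gria2, which relates GluA1 to the calcium-blocking GluA2, was compared between groups by exact two-sided permutation tests. The log2 ratio was -1.94, -1.91, -1.98, -1.92 and -1.88 in H2O, and in SCFA it ran from -2.12 through a median of -2.11 to -1.93. It was -1.94, -2.11, -1.92 and -1.95 in Abx and -1.99, -2.12, -1.96, -1.89 and -2.01 in Abx_SCFA. All SCFA libraries but replicate 4 lay below every H2O library. The difference of SCFA from H2O was -0.15 (exact permutation p = 0.00866, adjusted p = 0.13 over the 15 ratio comparisons), which did not pass, and the smallest p that the 462 splits allow is 0.00216. Leaving out 1 library at a time kept the difference between -0.18 and -0.14, and without SCFA replicates 2 and 5 it was -0.14.

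The ratio of Grin2a to Grin2b, which relates the subunits of faster and slower NMDA receptors, had log2 means of -1.42 ± 0.31 (H2O), -1.09 ± 0.50 (Abx), -1.26 ± 0.45 (SCFA) and -1.43 ± 0.28 (Abx_SCFA), with SD. Abx exceeded H2O by 0.33 (exact permutation p = 0.254, adjusted p = 0.635). The ratio of Grin3a to Grin1 had means of -5.47 ± 0.34, -5.40 ± 0.39, -5.40 ± 0.22 and -5.53 ± 0.26 in the same order. None of the 15 comparisons of ratios passed after adjustment (smallest adjusted p = 0.13, exact permutation tests), and 1 had an unadjusted p below 0.05.

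**Figure D3:**
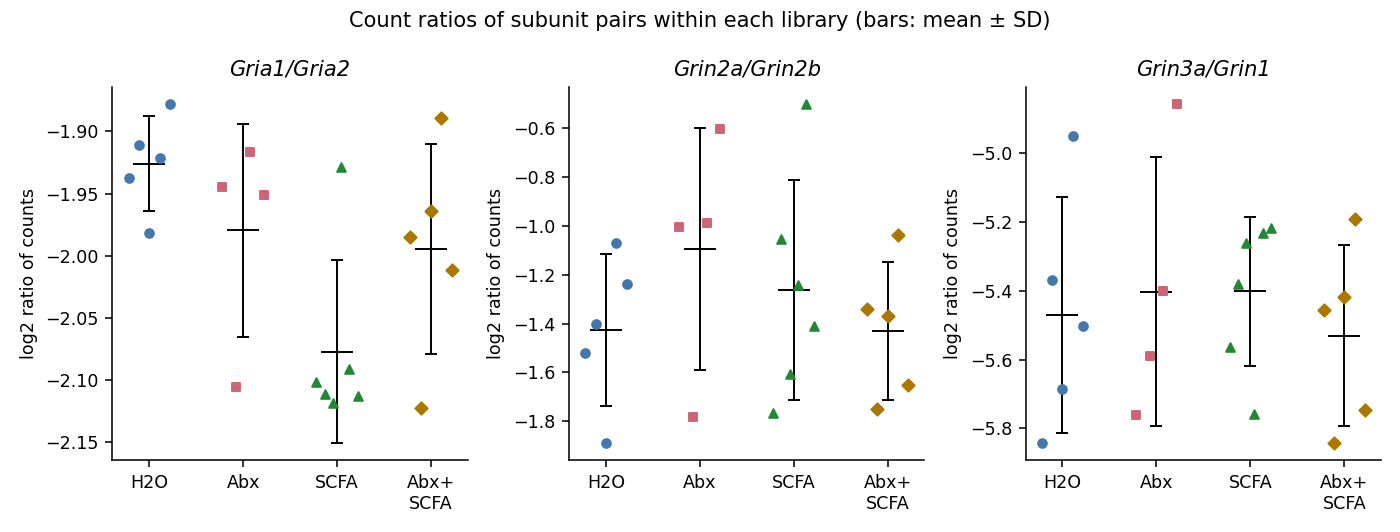
Log2 ratio of counts of 3 pairs of subunit genes (vertical axis) in each library by treatment group, with the mean and SD as black bars. For Gria1 to Gria2, SCFA replicate 4 lies among the H2O libraries at -1.93 and the other SCFA libraries lie below them.

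The 10 genes differed in how much they varied among libraries of the same group. The within-group coefficient of variation was 8.38% for Gria1 and 8.38% for Gria2, 9.73% for Grin2b, 11.6% for Grin1, 11.7% for Gria4, 12.8% for Grin2d and 13.9% for Gria3. It was 18.0% for Grin2c, 20.1% for Grin3a and 34.7% for Grin2a. Counting error alone gives from 0.665% for Gria2 to 5.93% for Grin2d, so that the spread was above counting error for all 10 genes. These are values per gene across libraries, and levels of different genes are not compared because no transcript lengths were used.

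With all 20 libraries, Gria3 and Grin2a moved with the cortical neuron markers within groups, but neither passed without SCFA replicate 5. In a fit with a term for each group, the level of each gene was related to the cortical score, the mean log2 CPM of the cortical excitatory neuron markers, which contain no member. The score ran from 0.76 to 6.42. Gria3 rose by 0.12 ± 0.028 (SE) on the log2 scale per unit of score (edgeR adjusted p = 0.00689) and Grin2a by 0.27 ± 0.071 (edgeR adjusted p = 0.0148). So 2 of 10 members passed, against 14.8% of all genes. The other 8 members had slopes between -0.03 and 0.06, among them Gria2 at -0.03 ± 0.026 and Grin2b at 0.02 ± 0.029 (SE). In the library with the lowest score, H2O replicate 3, Gria3 stood at 293 and Grin2a at 19.5 CPM. In the library with the highest score, SCFA replicate 5, they stood at 445 and 58.2 CPM.

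The 2 slopes rested in part on SCFA replicate 5. Without it the slope of Gria3 was 0.08 (edgeR adjusted p = 0.0795) and that of Grin2a 0.18 (0.156). Without SCFA replicate 1 that of Grin2a was 0.24 (0.0504), and without SCFA replicates 2 and 5 the slopes were 0.08 (0.218) and 0.17 (0.337). Among the SCFA and Abx_SCFA rats alone they were 0.18 (edgeR adjusted p = 0.00233) and 0.35 (0.00891), and among the H2O and Abx rats alone 0.05 (0.587) and 0.16 (0.568). Grin2b also passed among the SCFA and Abx_SCFA rats alone, at 0.09 (edgeR adjusted p = 0.0358). These subsets were added after the data were seen. SCFA replicate 5 also had the lowest oligodendrocyte score (mean log2 CPM of the oligodendrocyte markers), 7.91. With that score in place of the cortical score, the slopes were -0.25 for Gria3 (edgeR adjusted p = 0.0226) and -0.48 for Grin2a (0.1). With the cortical score in the model of the treatments, the log2 fold change of Gria3 was 0.01 in Abx against H2O, -0.06 in SCFA against H2O and -0.08 in the interaction. That of Grin2a was then -0.29 and -0.50 in the same pairwise comparisons, and its interaction turned to 0.18. Grin1 moved away from 0 instead, from 0.23 to 0.31 in Abx against H2O and from -0.16 to -0.26 in the interaction. The parts of cortical tissue and of oligodendrocytes in these levels were not tested further.

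**Figure D4:**
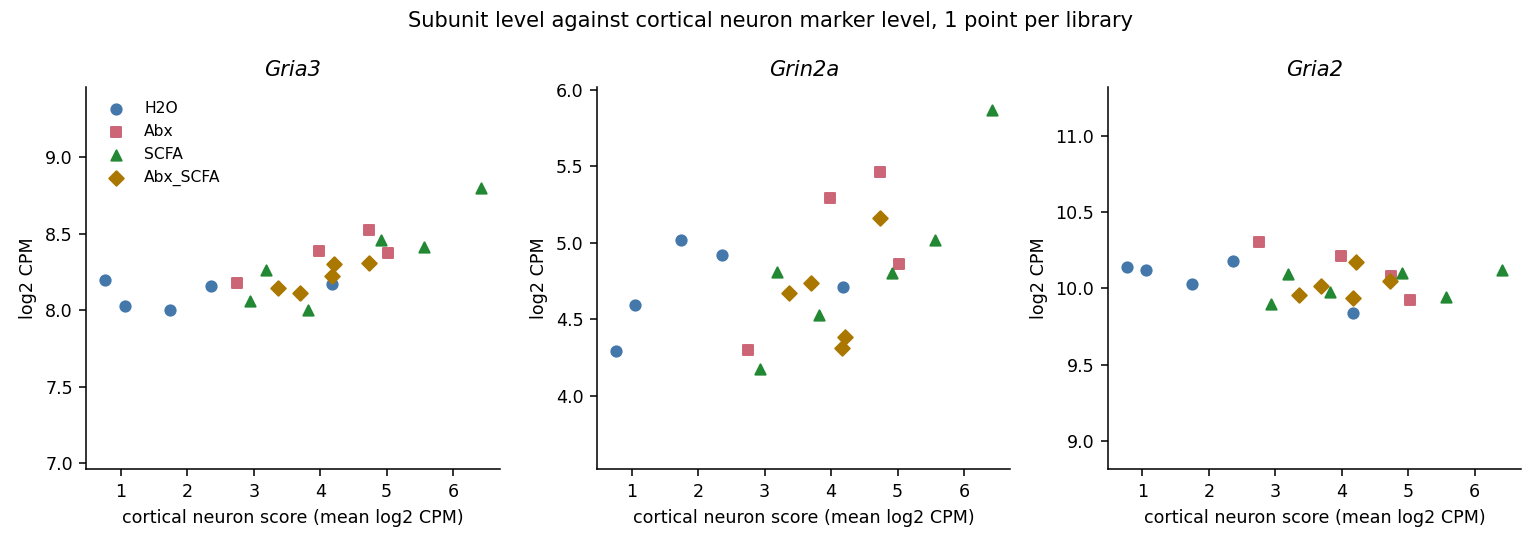
Log2 CPM of Gria3, Grin2a and Gria2 (vertical axes, equal spans) against the cortical neuron score of the library (horizontal axis, mean log2 CPM), 1 point per library with shape and colour for the group. Gria3 and Grin2a are highest in the SCFA library with the highest score of 6.42, and Gria2 shows no such rise.

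**Figure D5:**
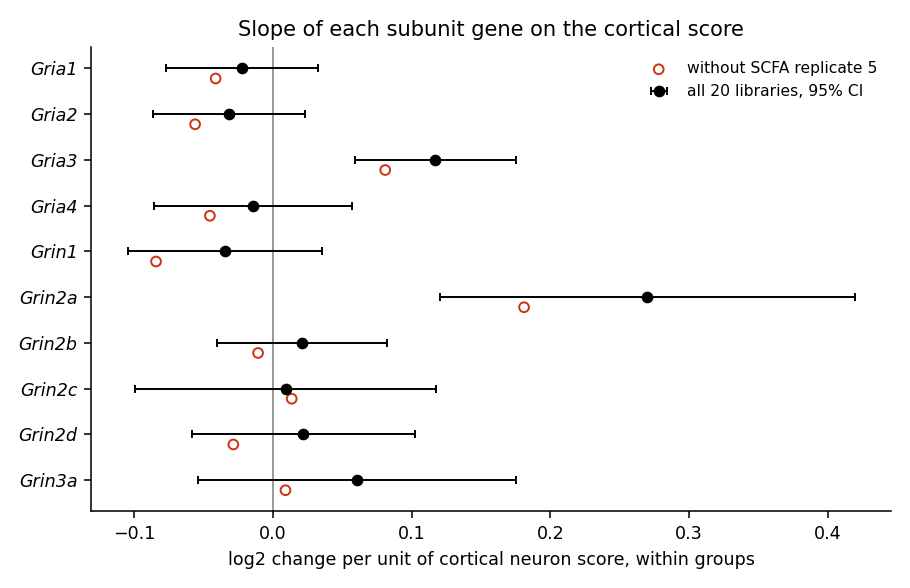
Slope of each subunit gene on the cortical neuron score within groups (horizontal axis, log2 change per unit of score), with 95% intervals in black and the value without SCFA replicate 5 as open red circles. The intervals of Gria3 and Grin2a lie above 0, and both slopes are smaller without that library.

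Among themselves, the members fell into loose patterns across the 20 libraries, given here as descriptions with Pearson's r of log2 CPM over libraries that share tissue make-up and scaling. The highest of the 45 pairs was Gria1 with Gria2 (r = 0.78), followed by Grin2a with Grin3a (0.74), Gria3 with Grin2a (0.71), Gria2 with Grin2b (0.67) and Gria2 with Gria4 (0.66). Grin2c ran opposite to Grin2b (-0.54), Gria2 (-0.49) and Grin3a (-0.46). Gria1 and Gria3 were nearly unrelated (0.05).

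The genes most like each member over the 20 libraries had higher values of r. Among them were Scn2b for Gria1 (0.93), Usp11 and Slitrk5 for Gria2 (0.87 and 0.86), Kcnh7 and Agbl4 for Gria3 (0.94 and 0.93) and Osbpl2 and Dmtf1 for Gria4 (0.81 and 0.79). For the obligatory NMDA subunit gene Grin1 they were Dmtn and Prrt2 (0.93 and 0.92), for Grin2a Atp2a2 and Gabra3 (0.90 and 0.90), for Grin2b Fam69a and Pcdha4 (0.86 and 0.85) and for Grin2c Ocln and Plekhm2 (0.84 and 0.77). For Grin2d they were Ppp1r16a and Acap3 (0.83 and 0.81), and for Grin3a Prickle2 and Entpd4 (0.82 and 0.76).

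Other genes of the same signalling system gave the same count of calls between treatments. In each list 0 genes passed in any comparison: 8 of 8 other ionotropic subunits were tested, 17 of 20 AMPA receptor auxiliary and assembly genes, 2 of 2 Neto genes, 19 of 19 scaffold and trafficking genes, 14 of 14 kinases, phosphatases and their anchors, 3 of 3 RNA editing enzymes and 17 of 17 genes of glutamate and co-agonist supply. The genes with the smallest p of the other ionotropic subunits were Grid1, a delta receptor gene, and Grik2, a kainate receptor gene, at -0.19 ± 0.060 and -0.29 ± 0.098 in SCFA against H2O (log2 fold change, SE). Olfm1 and Olfm2, which encode secreted proteins found in AMPA receptor complexes, stood at 1.58 ± 0.49 and 0.87 ± 0.27 in the same comparison. The kainate receptor partners Neto1 and Neto2 stood at -0.23 ± 0.10 and -0.10 ± 0.070, and the scaffold genes Dlg1 and Dlgap1 at -0.22 ± 0.074 and 0.77 ± 0.26, also in SCFA against H2O. The edgeR adjusted p of these 8 genes was at least 0.247. Without SCFA replicates 2 and 5 the values were nearer to 0 for 7 of them, with Olfm1 at 0.70, Olfm2 at 0.37, Dlgap1 at 0.27, Dlg1 at -0.14, Grik2 at -0.14, Neto1 at -0.12 and Neto2 at -0.04, and Grid1 stood at -0.20.

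Akap5, which anchors kinases and calcineurin at receptors, had a log2 fold change of -0.41 ± 0.13 (SE) in SCFA against H2O, and the protein kinase C gene Prkca one of -0.25 ± 0.088 in Abx_SCFA against H2O. Of the RNA editing genes, Adar stood at -0.15 ± 0.058 in SCFA against H2O and Adarb2 at -0.27 ± 0.11 in Abx_SCFA against SCFA. Slc17a6, a vesicular glutamate transporter gene of thalamic and other subcortical neurons, stood at 2.73 ± 0.78 in SCFA against H2O, and Slc7a10, a serine and glycine transporter gene, at 0.24 ± 0.086 in Abx_SCFA against H2O. None of these passed (edgeR adjusted p from 0.247 to 0.815). Akap5, without SCFA replicates 2 and 5, stood at -0.23, Adar at -0.12 and Slc17a6 at 1.87 in SCFA against H2O. Adarb2 then stood at -0.20 in Abx_SCFA against SCFA, and 0 genes of these lists passed in any comparison.

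Along the cortical score, 1288 of all 12846 genes rose and 619 fell, and the counts of the lists are to be read beside these. Of the AMPA receptor auxiliary and assembly genes, 6 of 17 rose with the score and 2 fell, with Olfm1 at 0.69 ± 0.050, the cornichon gene Cnih3 at 0.50 ± 0.062 and the stargazin gene Cacng2 at 0.22 ± 0.028 log2 per unit (SE; edgeR adjusted p = 1.69e-08, 9.04e-06 and 1.58e-05). Of the scaffold genes 3 of 19 rose and 2 fell, with Dlgap1 at 0.35 ± 0.042 and Shank1 at 0.31 ± 0.048. Of the kinases, phosphatases and their anchors 2 of 14 rose and 3 fell, with the striatal phosphatase gene Ptpn5 at -0.19 ± 0.043 (edgeR adjusted p = 0.00536). Of the other ionotropic subunits Grik3 rose (0.15 ± 0.035), and Grik2 and Grin3b fell (-0.11 ± 0.027 and -0.14 ± 0.038). Of the supply genes 3 of 17 rose and 0 fell. Of the 2 Neto and the 3 RNA editing genes 0 passed. The names given here beyond the naming rule (Cnih3, Cacng2, Shank1, Ptpn5, Grik3 and Grin3b) were chosen after their values were seen. As marker lists, 9 of 9 cortical neuron genes rose with the score, which is built from them, and 6 of 12 medium spiny neuron genes fell and 0 rose. Without SCFA replicates 2 and 5, 447 of 12801 genes rose and 102 fell. Then 5 of 17 AMPA receptor auxiliary and assembly genes rose, among them Olfm1 (0.60), Cnih3 (0.40) and Cacng2 (0.20), with 2 of 19 scaffold genes, Dlgap1 (0.25) and Shank1 (0.25), and 2 of 17 supply genes. No other gene of the receptor, scaffold, kinase, editing and supply lists passed in that fit. Of the marker lists above, 6 of 9 cortical neuron genes rose in it and 0 of 12 medium spiny neuron genes passed.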

How the data were processed

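RNA of the nucleus accumbens was sequenced from 20 rats, as polyA RNA made into cDNA with a SMARTer kit, per the labels' protocols. The authors deposited 1 table of whole-number counts per gene symbol. The submitters' processing notes name the build Rnor_6.0, the aligner STAR 2.4.0, limma and FastQC 0.11.6. How reads were counted, with which annotation and strand setting, is not given in the sources used here. Genes that overlap a member in a RefSeq table of GRCr8, used for neighbours only, were in the count table for 4 of the 10 members (Mir2985 in Gria2, Lrrc26 at Grin1, Grwd1 at Grin2d, Ppp3r2 in Grin3a), and their reads may not be separable.

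Groups came from the treatment labels. Replicate numbers only name libraries, and cage mates are not identified, so that rats of 1 cage count as separate. The tests take the libraries as independent, and their p-values could be too small if cage mates are alike. The main test was edgeR 4.0.16 (R 4.3.3): quasi-likelihood with robust dispersion, TMM scaling, 1 model of 4 groups with 16 residual degrees of freedom, filterByExpr (minimum 10 counts, 15 in total) and Benjamini-Hochberg adjustment over 12846 genes. The threshold was an adjusted p of 0.05. Standard errors came from the F statistic. Log2 CPM used a prior count of 2, and ratios a pseudocount of 0.5. The scripts were tested on simulated counts. Each member had at least 206 counts in every library, so that precision is limited by the number of rats and the spread between their libraries. What made up that spread was not tested.

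The alternatives were DESeq2 1.42.0, limma-voom 3.58.1 with and without quality weights, RLE factors, no filter, fewer samples or groups, and added covariates. The refit of the further lists without SCFA replicates 2 and 5 was added after the data were seen. The named genes are the members, for each further list the 2 genes with the smallest p over the pairwise comparisons, and for each member the 2 genes with the highest r. A gene that this rule takes is not reported here. The members and lists were chosen with earlier results of these data known. No sequences are shown, because no measurement here bears on a promoter.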

Additional observations from a re-analysis of the deposited data

Results flagged for a closer look

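Among the 52 groups of values examined for a single library far from the others (10 genes and 3 ratios in 4 groups), 3 held one, and chance gives about 1 in 20. Grin1 in Abx_SCFA replicate 2 stood at 730.2 CPM, above the other Abx_SCFA libraries. Grin2a in SCFA replicate 5 stood at 58.2 CPM, and this library also had the highest cortical score and the lowest oligodendrocyte score. The log2 ratio of Gria1 to Gria2 in SCFA replicate 4 stood at -1.93, above the other SCFA libraries. Of the 10 tests of whether the antibiotic effect differs with fatty acids, which cannot be told apart from the number series, 0 passed.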

How the results depend on the processing

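No paired analysis was possible because the replicate numbers were given in accession order and the labels tie no rat of one group to a rat of another. In every alternative run, 0 of 10 members were called in each treatment comparison and the interaction. Over all 1740 refitted log2 fold changes of members, 0 passed (smallest edgeR adjusted p = 0.101) and 125 changed sign. DESeq2 called 1 gene in Abx against H2O, 10 in SCFA against H2O, 1 in Abx_SCFA against H2O and 3 in Abx_SCFA against SCFA, none of them members. Without H2O replicate 4 and Abx_SCFA replicate 5 together, edgeR called 2, 5 and 1 genes in SCFA against H2O, Abx_SCFA against SCFA and the interaction. Leaving out 1 library gave 0 to 2 genes in SCFA against H2O and in Abx_SCFA against SCFA, and 0 in the others.

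For the slope on the cortical score, leaving out 1 library gave 1127 to 2833 genes and 0 to 2 members. Slc17a7 alone as the score gave 1222 genes and 0 members (Gria3 0.06, adjusted p = 0.0586, and Grin2a 0.16, 0.0514), the oligodendrocyte score 1245 genes, and the medium spiny neuron score 0 members. Without SCFA replicates 2 and 5 there were 549 genes and 0 members, and among H2O and Abx rats, a setting added after the data were seen, 230 and 0. Against the medium spiny neuron score the slopes turned to -0.35 for Gria3 and -0.62 for Grin2a, and against the oligodendrocyte score to -0.25, -0.48 and, for Grin2b, -0.20 (edgeR adjusted p = 0.0226, 0.1 and 0.0191). Other scores measure other tissue, and the cause of the remaining changes was not tested.

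The differences of log2 ratios that turned with medians were Grin2a to Grin2b (0.033) and Grin3a to Grin1 (0.049) in Abx_SCFA against H2O, and Grin3a to Grin1 (0.039) in Abx_SCFA against Abx. Without SCFA replicates 2 and 5, Grin2a to Grin2b turned to -0.082 in SCFA against H2O and to 0.076 in Abx_SCFA against SCFA. None of these passed in any setting. Leaving out 1 library, the ratio of Grin3a to Grin1 ranged from -0.11 to 0.20 in Abx against H2O, -0.025 to 0.20 in SCFA against H2O, -0.15 to 0.070 in Abx_SCFA against H2O and -0.25 to 0.053 in Abx_SCFA against Abx, Grin2a to Grin2b from -0.12 to 0.084 in Abx_SCFA against H2O, and Gria1 to Gria2 from -0.057 to 0.017 in Abx_SCFA against Abx.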
